A study of Mus musculus with 15 samples.

Results

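Alternative acceptor (AA) events are places where an intron can end at either of 2 neighbouring 3' splice sites, so that the exon that follows begins earlier or later. The authors' table of splicing events held 138940 rows, of which 1863 in 1565 annotated genes carried the type AA, and these 1863 rows, chosen by that type alone, are described here. Each row gives the exon segment between the upstream and the downstream acceptor and its percent spliced in (PSI, a fraction between 0 and 1), which is the use of the upstream acceptor and therefore of the longer exon. The segments were 1 to 6981 bases long, with a median of 19 bases. In 1318 genes there was 1 AA event, in 247 genes there were more, and Phf21a held the most, with 5.

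The cells were CD8+ T cells of OT-I Tg C57BL/6J mice, whose transgenic T cell receptor recognises the ovalbumin peptide SIINFEKL. According to the methods of the study, the donors also lacked Rag1 or Rag2 and the cells were given to C57BL/6J recipients. The Ag group received peptide with rat IgG, and the Ag+Costim group received peptide with agonist antibodies to the costimulatory receptors OX40 (CD134) and 41BB (CD137). Spleen and lymph node cells were sorted, at 4 days by the labels, while parts of the study's text give a shorter time. By the study's methods mice of both sexes were used, and the recipients kept their own T cells. Both groups shared the transgene, the transfer and the peptide, and were measured as poly(A) RNA in 5 libraries each. Naive OT-I cells were not analysed here. The question was whether acceptor choice differs when priming is accompanied by costimulation.

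The spliceosome recognises an acceptor by an AG dinucleotide that follows a pyrimidine-rich tract, and the first suitable AG downstream of the branch point is often favoured. Where a pair of AG dinucleotides lies 3 bases apart, in the arrangement called NAGNAG, the longer and the shorter mRNA differ by a single codon's length. Segments whose length is a multiple of 3 keep the reading frame, and others shift it, which often exposes the mRNA to nonsense-mediated decay.

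The library totals lay between 59.6 and 449.4 M (mega) estimated counts for Ag, and from 332.3 to 639.1 M for Ag+Costim. Genes with a count numbered 20714 (replicate 5) to 51778 (replicate 3) in Ag, against 28727 to 30340 in Ag+Costim. The 8 defining genes of CD8 T cells summed to 4494 to 8655 CPM (the count level after scaling each library to one total with TMM factors) in Ag and from 6219 to 7262 in Ag+Costim, and none was at 0. The 6 B cell markers summed to 33.2 to 342 CPM in Ag, against 30.4 to 50.6 in Ag+Costim, and the 6 erythroid markers to 14.7 to 1103 in Ag, against 3.80 to 39.8 in Ag+Costim. The 6 myeloid markers summed to 48.5 to 115 CPM in Ag, against 79.6 to 162 in Ag+Costim, the 4 CD4 T cell markers to 3.74 to 26.4 and 3.16 to 8.20 CPM, and the 3 NK cell markers to 25.1 to 98.6 and 54.1 to 102 CPM. No marker was at 0 in every library. Ag replicate 3 had the lowest total (59.6 M) and the highest erythroid and B cell sums. The B cell sums of Ag replicates 1 and 4 were 132 and 185 CPM, and those of Ag replicates 2 and 5 were 33.2 and 40.2 CPM. Ag replicates 1 and 4 stood apart from the other Ag libraries in several host genes. Tpx2, a spindle assembly factor, was at 36.9 and 40.1 CPM there and at 221 to 325 CPM in the other 3, and Dnmt1, the maintenance DNA methyltransferase, at 115 and 146 against 376 to 423 CPM. The surface protein Ly6a was at 49.5 and 87.1 against 486 to 1054 CPM, whereas Foxp1, a transcription factor of T cell quiescence, was higher there, at 244 and 269 against 61.8 to 94.0 CPM. Results that rest on these 2 libraries are also given without them, a choice made after seeing the data. Fewer cells of a type and less RNA per cell cannot be told apart in these bulk samples, and the part of these markers in the results was not tested.

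The segment itself carries the downstream acceptor at its end. Among the 1409 AA events whose host gene reached 10 CPM in either group and that had a readable sequence, 1346 segments (95.5%) ended in AG, and so did 353 of the 358 segments of 3 bases (98.6%). The following sequences are shown because they carry the pairs of acceptors whose use is described below. They were read 5' to 3' from GENCODE M21 transcripts on mm10, and in the first 6 the AG of each of the 2 acceptors stands in capitals, with the intron to the left of the first.
Irak1 (chrX:74022662-74022664, minus strand): ggtctcttccAGcAGtcaagcccagagagc
Ankrd17 (chr5:90278389-90278391, minus strand): tttgttcaacAGcAGtcagtggaagagcat
Shisa5 (chr9:109051364-109051366, plus strand): cttttctgttAGcAGattttccacccccgc
Dhx9 (chr1:153478979-153478981, minus strand): tttttttaatAGcAGaaaataattctggag
Cbfa2t2 (chr2:154531222-154531224, plus strand): gctttcttccAGaAGaagccgtgaataagg
Cdh23 (chr10:60305186-60305187, minus strand): ccccaactacAGAGccaaccctgtgtggc
Of the longer segments that differed most, the last bases are shown next, with the AG of the downstream acceptor in capitals and the shared exon to its right.
Ly6e (chr15:74955483-74955566, plus strand): cgttctccccaccAGccagagacccgccca
Eif4g1 (chr16:20674168-20674227, plus strand): gtctctccccttcAGccagcgtttcccccg
Nfya (chr17:48392489-48392506, minus strand): cagtccctgtttcAGgcatgatcaccatcc
Vps54 (chr11:21264630-21264665, plus strand): ttgccccatctctAGttacagatcaacata
In the Aga segment, shown inside the mRNA of the longer form, the whole segment of 8 bases stands in capitals.
Aga (chr8:53520237-53520244, plus strand): aatacctggTCGTGTAGgggattcaccaat

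Length had the clearest structure in the AA events. Segments of 3 bases were by far the most frequent length, 453 of 1863 (24.3%), and 1181 segments (63.4%) were multiples of 3. With host genes at 10 CPM or more, 1415 events remained (372 were at 1 to 10 CPM, 75 under 1 CPM and 1 had no matched gene), of which 358 were 3 bases long (25.3%) and 916 multiples of 3 (64.7%). By comparison, 44.9% of 1117 alternative donor segments, 38.8% of 80376 core exons and 35.2% of 645 retained introns in genes at that level were multiples of 3, and 2.15% of the donor segments were 3 bases long. Multiples of 3 made up 72.9% of the 1066 AA segments inside coding sequence and 45.9% of the 220 in 5' untranslated regions (UTRs).

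PSI followed the distance between the acceptors. In segments of 3 bases the median PSI was 0.50 in Ag and 0.489 in Ag+Costim, so the acceptors of a NAGNAG pair were used to a like extent at the median. The median was 0.507 in Ag and 0.502 in Ag+Costim for 1 or 2 bases (52 events), 0.697 and 0.660 for 4 bases (46 events) and 0.832 and 0.838 for 5 bases (34 events). It was 0.909 and 0.939 for 6 bases (46 events) and 0.925 and 0.943 for 7 to 12 bases (99 events). Upstream use was thus highest at the median where the second AG lay 6 to 12 bases behind the first. It was lower again at 13 to 30 bases, with medians of 0.564 and 0.512 in 249 events, and higher at 31 to 100 bases (0.820 and 0.814, 346 events) and over 100 bases (0.871 and 0.880, 185 events). In host genes at 100 CPM or more this order was different in Ag, with a median of 0.740 at 6 bases (13 events), 0.858 at 7 to 12 bases (35 events) and 0.909 at 31 to 100 bases (113 events), while 3 bases stayed lowest at 0.475 (131 events). The order of the classes was much alike in the groups, and no test was made, since the PSI table holds 1 value per group with no replicate spread.

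**Figure D1:**
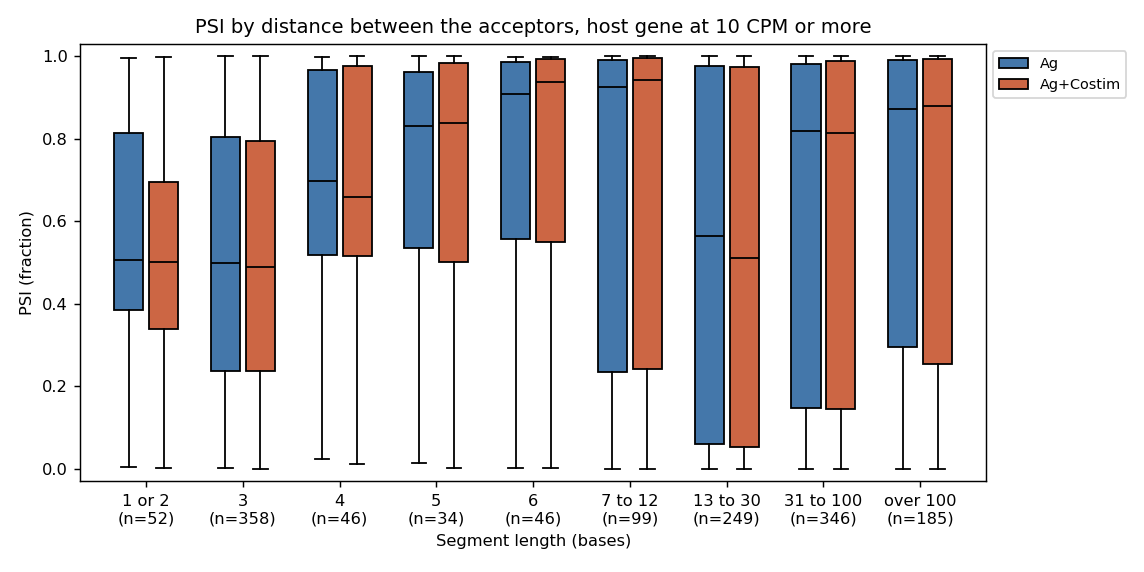
PSI (y axis, fraction) by segment length in bases (x axis) for 1415 alternative acceptor events in genes at 10 CPM or more, in Ag and Ag+Costim. Lines mark medians, boxes the middle of the events between the quartiles and whiskers the lowest and highest event; the medians lie near 0.50 at 3 bases and above 0.900 at 6 and at 7 to 12 bases, in both groups.

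Within a class the events were spread widely. Of the 358 segments of 3 bases, 268 had a PSI between 0.1 and 0.9 in at least 1 group, 46 were above 0.9 in both groups and 44 below 0.1 in both. For 13 to 30 bases, 83 events were above 0.9 and 74 below 0.1 in both groups, and 92 lay between in at least 1 group. At 6 bases 19 of 46 events lay between, and at 7 to 12 bases 26 of 99. Both acceptors were therefore used in most pairs 3 bases apart, whereas in most pairs of these longer classes 1 acceptor was used nearly alone in both groups. In coding sequence PSI also differed by frame. Frame-shifting coding segments (289 events) were at a median PSI of 0.910 (Ag) and 0.899 (Ag+Costim). Coding segments of 3 bases (318 events) had medians of 0.509 and 0.495, and other coding multiples of 3 (459 events) of 0.835 and 0.820. In the annotation, each of 776 coding events that keep the frame had protein-coding transcripts for both forms, and 278 of 285 that shift it (97.5%). The coding position was itself read from protein-coding transcripts of the longer form where there were any, so these counts are largely set by that choice. The shorter form had an annotated decay transcript in 107 of the 776 and in 42 of the 285.

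The median PSI of the 3-base segments differed with the letter before the downstream AG. Those reading CAG (253 events) were at a median PSI of 0.426 (Ag) and 0.442 (Ag+Costim), so the downstream CAG was used slightly more often than the upstream acceptor. TAG segments (30 events) had medians of 0.696 and 0.627, and AAG segments (56 events) of 0.779 and 0.798. GAG segments (14 events) had medians of 0.989 and 0.991, that is, the downstream acceptor was hardly used when its AG followed a G. The quartiles in Ag overlapped for CAG (0.21 to 0.69), TAG (0.40 to 0.87) and AAG (0.44 to 0.94), and only GAG stood apart (0.95 to 0.999). At 100 CPM or more, the medians in Ag were 0.443 for CAG (94 events), 0.713 for TAG (12 events), 0.682 for AAG (17 events) and 0.999 for GAG (5 events), so TAG and AAG changed places.

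The bases of the upstream acceptor could be read in 86 of these 358 events, because another transcript runs through the intron end, and 81 of them ended in AG. With CAG at both sites (37 events, among them Irak1, Ankrd17, Myc and Cd247) the median PSI was 0.517 in Ag and 0.548 in Ag+Costim. An upstream TAG before a downstream CAG (14 events, among them Shisa5, Dhx9, Srsf5 and Srsf10) gave 0.375 and 0.354, and an upstream CAG before a downstream AAG (10 events, among them Cbfa2t2) gave 0.773 and 0.807. In each of these 3 arrangements the range was wide, for instance 0.0475 to 0.994 in Ag for TAG before CAG. In the 607 segments of at least 22 bases that ended in AG, the 20 bases before the downstream AG held a median of 75% C or T where PSI was under 0.2 in both groups (152 events), 70% at a PSI of 0.2 to 0.8 (132 events) and 65% where it was over 0.8 (301 events). Read the other way, the median PSI in Ag and Ag+Costim was 0.987 and 0.993 in the 78 segments with the fewest C or T (at most 50%) and 0.922 and 0.912 in the 236 of the next class (up to 65%). It was 0.503 and 0.479 in the 240 of the class up to 80%, and 0.600 and 0.593 in the 53 above it, so PSI was lower in the 2 pyrimidine-rich classes, but not lowest in the richest.

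Between the groups PSI was close for most AA events. Across the 1415 events the correlation of PSI in Ag and in Ag+Costim was r = 0.989, the median size of the difference was 0.0131, with 685 events above and 729 below their Ag value. The points share genes and libraries, so this r is a description. A difference of more than 0.1 was found in 87 events (6.15%), 33 of them higher and 54 lower in Ag+Costim. Over AA, donor, core exon and retained intron events together the same limit was passed by 0.771% of 83553 events, 0.36% higher and 0.411% lower. Most of those are core exons near a PSI of 0 or 1. Among events with a PSI between 0.1 and 0.9 in at least 1 group, 12.7% of 685 AA events passed, against 15.5% of donor, 16.5% of core exon and 19.2% of retained intron events, so AA events were the least often past the limit of the 4 types. More were lower than higher also among donor (28 higher, 62 lower) and retained intron events (10 and 41), but not among core exons (230 and 186). Because each group has a single PSI, these counts have no replicate check.

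**Figure D2:**
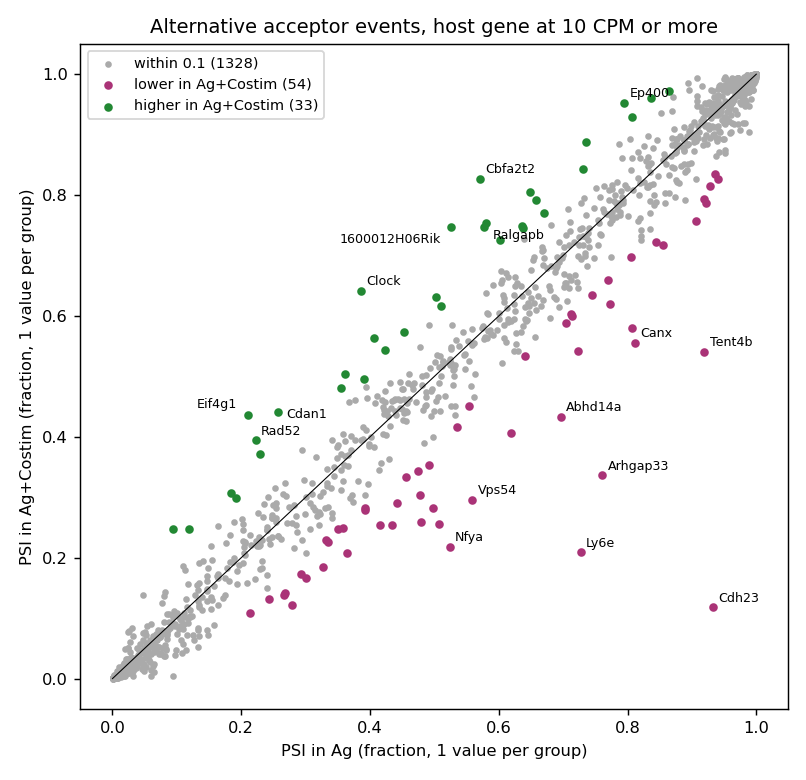
PSI in Ag (x axis) against PSI in Ag+Costim (y axis), both as fractions, for the 1415 alternative acceptor events in genes at 10 CPM or more; each point is 1 event and the line marks equal values. The 54 events lower and the 33 events higher in Ag+Costim by more than 0.1 are coloured, and the 8 largest in each direction carry the gene name, with Cdh23 and Ly6e farthest from the line.

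The size of the differences went with the host gene's level. More than 0.1 was reached by 34.1% of 372 events in genes at 1 to 10 CPM, 10.3% of 632 at 10 to 50 CPM, 3.14% of 573 at 50 to 200 CPM and 1.9% of 210 at 200 CPM or more. The median size was 0.0496, 0.0199, 0.00934 and 0.00516 in these classes. The depth behind a single PSI is unknown here, and the part of counting error in the differences was not tested.

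**Figure D3:**
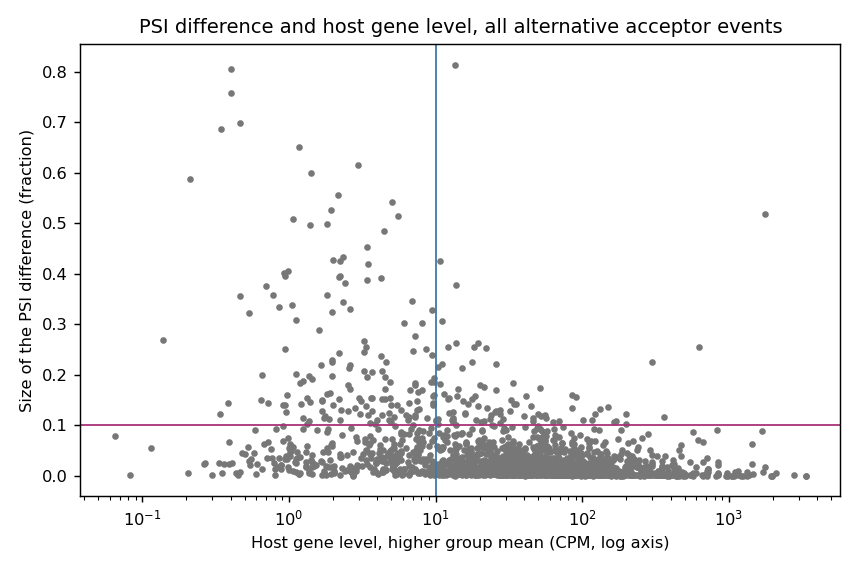
Size of the PSI difference between Ag+Costim and Ag (y axis, fraction) against the host gene's mean level in the higher group (x axis, CPM, log axis), 1 point per alternative acceptor event of any level above 0. The horizontal line marks 0.1 and the vertical line 10 CPM; large differences thin out to the right, down to 1.9% of events past 0.1 at 200 CPM or more.

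The largest PSI values lower in Ag+Costim were of 8 genes with mixed roles. Cdh23, a cadherin, had a segment of 2 bases with PSI 0.933 in Ag and 0.118 in Ag+Costim, with the gene at 13.6 ± 5.93 CPM (Ag) and 5.39 ± 1.36 CPM (Ag+Costim, SD, n = 5 each). Ly6e, a lipid-anchored surface protein of lymphocytes, had a segment of 84 bases in its 5' UTR with PSI 0.727 and 0.209, at 1730 ± 515 and 1757 ± 175 CPM (SD, n = 5 each). Arhgap33, a GTPase-activating protein, had 27 bases in the 5' UTR with 0.761 and 0.336, and Tent4b, a noncanonical poly(A) polymerase, 26 bases in the 5' UTR with 0.919 and 0.541. These were the 4 largest differences, and 3 of the 4 lay in a 5' UTR. Cdh23 reached 10 CPM only in Ag, and Arhgap33 only in Ag+Costim (5.46 and 10.7 CPM). Nfya, the DNA-binding subunit of the CCAAT factor NF-Y, had an in-frame segment of 18 bases with 0.524 and 0.218. It too reached 10 CPM only in Ag+Costim (7.70 and 11.0 CPM). Vps54, part of a complex that tethers vesicles at the Golgi, had 36 bases with 0.559 and 0.296. Abhd14a (5 bases) stood at 0.696 and 0.433, and Canx, the chaperone calnexin of the endoplasmic reticulum, at 0.812 and 0.556 for 4 bases in its 5' UTR.

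Higher in Ag+Costim were mainly short segments. Segments of 3 bases belonged to Cbfa2t2, a transcriptional co-repressor (PSI 0.571 in Ag and 0.827 in Ag+Costim), Clock, a circadian transcription factor (0.386 and 0.642), Cdan1 (0.257 and 0.441) and Rad52, a recombination protein (0.223 and 0.394). Clock reached 10 CPM only in Ag (12.1 and 8.76 CPM). Eif4g1, the scaffold of the cap-binding initiation complex, had a segment of 60 bases in its 5' UTR with 0.210 and 0.436, at 155 ± 37.0 and 299 ± 39.8 CPM (SD, n = 5 each). Of the remaining 3, 1600012H06Rik (5 bases) stood at 0.526 and 0.748, Ralgapb, a subunit of a GTPase-activating complex for Ral (12 bases), at 0.580 and 0.754, and Ep400, an ATPase of a chromatin remodelling complex (147 bases), at 0.794 and 0.953.

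Position in the mRNA went with the frequency of large differences. In 5' UTRs 29 of 220 events (13.2%) passed 0.1, 11 higher and 18 lower in Ag+Costim, and in coding sequence 53 of 1066 (4.97%), 21 higher and 32 lower. At 50 CPM or more the shares were 7.76% of 116 and 1.99% of 602 events. Where PSI lay between 0.1 and 0.9 in a group, 23.4% of 5' UTR and 10.5% of coding events passed. None of the 20 events in 3' UTRs did. By length, 29 of 358 segments of 3 bases passed (13 higher, 16 lower), 4 and 14 at 13 to 30 bases, 3 and 12 at 31 to 100 bases and 6 and 7 over 100 bases.

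Among 3-base segments in genes at 50 CPM or more, the largest differences were again moderate. Ncor1, a nuclear receptor co-repressor, had PSI 0.475 in Ag and 0.344 in Ag+Costim. Irak1, a kinase of Toll-like and interleukin 1 receptor signalling, had 0.455 and 0.333, and Satb1, a chromatin organiser of T cells, 0.770 and 0.660. The other 3 were Tpx2 (0.704 and 0.588), Fam189b (0.806 and 0.697) and Ankrd17 (0.637 and 0.745), the last being the only 1 of the 6 that was higher in Ag+Costim. In the most expressed genes with intermediate use the values were closer: Ly6e had a TAG segment at 0.669 and 0.685, Shisa5 0.393 and 0.304, Fxyd5, a regulator of the sodium pump, 0.205 and 0.218, and Dnmt1 0.426 and 0.442.

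By gene function, transcription and chromatin regulators held 73 events at 10 CPM or more, of which 4 were higher and 4 lower by more than 0.1 (11.0%), beside 6.15% of all AA events, and a median size of 0.0204 beside 0.0131. Where PSI lay between 0.1 and 0.9 in a group (52 events), 15.4% passed, beside 12.7% of all such AA events. Nfya and Ep400 were among these regulators, and Foxp1 had PSI 0.922 in Ag and 0.787 in Ag+Costim for 96 bases. Splicing and RNA-binding factors held 62 events, with a median host gene level of 158 CPM in the higher group, against 52.5 CPM in genes of no list. Of the 62 events 1 passed (1.61%, and 2.70% of the 37 with a PSI between 0.1 and 0.9 in a group). It was in Ptbp2, the neuronal homologue of the polypyrimidine tract binding protein, at 0.351 and 0.248 for 3 bases. Ewsr1, an RNA-binding protein, had 0.895 and 0.985 for 12 bases, and Dhx9, an RNA helicase, 0.874 and 0.796 for 3 bases. Signalling genes held 42 events, of which 1 passed (2.38%), Tsc1, an inhibitor of mTOR signalling, at 0.648 and 0.805 for 15 bases. The kinases Map4k4 and Mapk14 stood at 0.786 and 0.885 and at 0.141 and 0.194.

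Cell cycle and repair genes held 36 events with 1 higher and 2 lower (8.33%, beside 6.15% of all AA events), namely Rad52, Tpx2 and the DNA ligase Lig3 (0.641 and 0.534, 3 bases). Ribosome and translation genes held 21 events with 1 higher and 2 lower (14.3%), so both shares rest on 3 events each. Those of translation were in Eif4g1, the initiation factor subunit Eif2b4 (0.364 and 0.208, 145 bases) and Dhx30, a helicase of mitochondrial ribosome assembly (0.712 and 0.603, 65 bases in the 5' UTR). Of 13 events in cell death genes and 5 in effector genes none passed. The nearest in these were Apaf1, the apoptosome scaffold (0.300 and 0.208), Ripk3, a necroptosis kinase (0.113 and 0.0478), Birc6 (0.661 and 0.633), and, among effector genes, the killer cell receptors Klrc2 (0.330 and 0.283) and Klrk1 (0.0258 and 0.0244) and Ly6a (0.134 and 0.121). Other genes that the study's text discusses had AA events with small differences. These were Mbnl1, a splicing regulator (0.941 and 0.914), Tardbp, an RNA-binding protein (0.947 and 0.946), Dlg1, a scaffold (0.0315 and 0.0130), Tcf12 (0.995 and 0.998) and Atf2 (0.840 and 0.878), the last pair being transcription factors. For Mbnl1 and Tcf12 the study describes polyadenylation changes in the 3' UTR, and for Tardbp its expression and knockout. The AA values do not bear on those. Whether the study's events in Dhx30, Dlg1 and Atf2 are these segments was not checked.

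For a value per library, the included share was computed. It is the percentage of estimated transcript counts on transcripts that contain the whole segment, out of those that contain or skip it. These transcripts can also differ at other exons, so the share is not a direct measure of acceptor use. The included share was tested with limma on the log2 ratio of included to skipped counts, with Benjamini-Hochberg (BH) adjustment over 8370 events of 4 types. Of 1395 AA events tested, 3 passed an adjusted p of 0.05 (0.215%), all 3 lower in Ag+Costim, where 0.131% of all events tested passed. The direction and number of calls depended on single libraries: without Ag replicate 5 there were 2 higher and 5 lower, without Ag replicate 2 there were 1 and 2, and without Ag replicates 1 and 4 together 6 and 8. At an unadjusted p under 0.05 there were 97 AA events (6.95%), 37 higher and 60 lower, beside 7.81% of all events. The median log2 ratio differed by -0.11 in AA events and by -0.12 in all events. Groups did not overlap in 5 AA events that were higher in Ag+Costim (0.358%) and 22 that were lower (1.58%), beside 0.657% and 1.4% of all events, so the AA shares were near the background.

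Aga, a lysosomal hydrolase of glycoproteins, had the lowest adjusted p. Its segment of 8 bases was included in 100% of counts in each of the 5 Ag libraries, and in 76.8, 73.7, 84.15, 86.3 and 79.8% in the Ag+Costim libraries. The groups did not overlap, with a mean of 80.1% ± 5.19 in Ag+Costim (SD, n = 5) and an adjusted p of 5.06e-04 by limma. The shorter form is a single transcript, Aga-203, and PSI was 0.998 in Ag and 0.988 in Ag+Costim, lower as well but by far less.

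Ppp6r3, a regulatory subunit of a serine/threonine phosphatase, had a segment of 51 bases (chr19:3473816-3473866) with included shares of 99.9, 98.6, 99.9, 99.9 and 99.9% in Ag. In Ag+Costim they were 83.6, 91.2, 94.5, 91.2 and 84.7%, all below Ag (mean 89.0% ± 4.69, SD, n = 5; adjusted p = 0.0477 by limma). PSI pointed the other way, with 0.819 in Ag and 0.861 in Ag+Costim. Mypop, a Myb-related repressor whose gene was below 10 CPM (4.15 and 4.54 CPM) and which is named after its values were seen, had 150 bases in its 5' UTR (chr7:18991832-18991981). Its shares were between 99.8 and 100% in Ag and were 96.5, 87.4, 79.3, 85.8 and 97.4% in Ag+Costim (adjusted p = 0.0360 by limma). Its PSI was 0.960 in Ag and 0.973 in Ag+Costim, so the measures differed in direction in 2 of the 3 events. The call for Ppp6r3 was lost without Ag replicate 1, 3 or 4 or without any 1 of the Ag+Costim libraries (adjusted p between 0.0576 and 0.191 by limma). That for Mypop was lost without Ag replicate 1 or 2 or Ag+Costim replicate 2, 3 or 4 (between 0.0507 and 0.165). Without Ag replicates 1 and 4 together Aga still passed (adjusted p = 0.00148 by limma), and Ppp6r3 (0.0637) and Mypop (0.0551) did not.

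**Figure D4:**
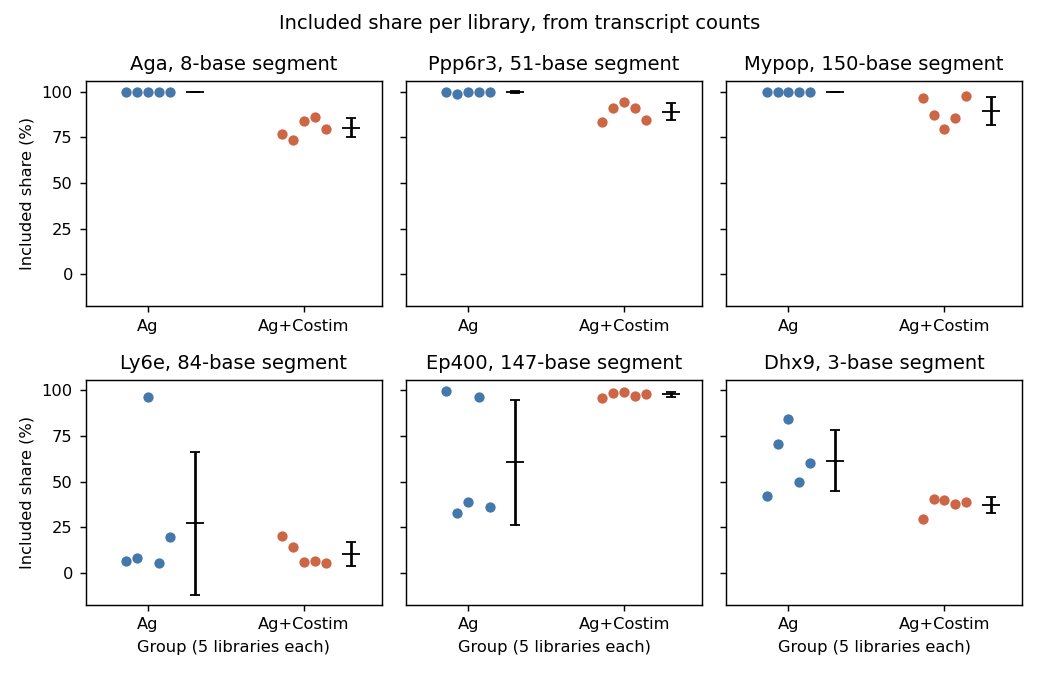
Included share (y axis, % of estimated transcript counts) in each of 5 Ag and 5 Ag+Costim libraries for 6 alternative acceptor events; each point is a library, and the bar beside the points gives mean and SD. Aga, Ppp6r3, Mypop and Dhx9 do not overlap between the groups, Ly6e has 1 Ag library at 96.6%, and the Ag libraries of Ep400 lie at 32.7 to 38.8% or at 96.3 to 99.8%.

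Next by p were 4 events that did not pass, all with lower means in Ag+Costim. Gon4l, a nuclear regulator of transcription (11 bases), had a mean share of 89.0% ± 9.16 (Ag) and 58.6% ± 10.5 (Ag+Costim; SD, n = 5 each; adjusted p = 0.20 by limma), without overlap. Its PSI was 0.0202 and 0.0103, so the level itself differed between the measures. Naaa, a lysosomal amidase (6 bases), had 93.7 and 57.2% (adjusted p = 0.292 by limma), Dgcr2 (9 bases) 61.9 and 32.3% (0.364) and Pou2f2, the transcription factor Oct-2 (66 bases), 14.9 and 5.47% (0.437). In Naaa the Ag libraries stood at 100% but for replicate 5 at 68.5%, inside the range of 43.3 to 74.4% in Ag+Costim.

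The included shares of the following events varied among libraries of a group. For the 84-base segment of Ly6e the included shares in Ag were 6.82, 8.33, 96.6, 5.32 and 19.5%, and in Ag+Costim 20.4, 13.98, 5.97, 6.45 and 5.57%. Only Ag replicate 3 was high and the groups overlapped (adjusted p = 0.812 by limma), and without that library the log2 ratio turned from -1.58 to 0.06. For Ep400 the Ag shares were 99.8, 32.7, 38.8, 96.3 and 35.9%, and those in Ag+Costim 96.0, 98.3, 99.1, 97.1 and 98.1%. Here 3 Ag libraries lay far below all others, and replicates 1 and 4 among the Ag+Costim values (adjusted p = 0.687 by limma). Without replicates 1 and 4 the log2 ratio was 6.46 higher in Ag+Costim (adjusted p = 0.00148 by limma), in place of 3.41. That fit rests on Ag replicates 2, 3 and 5, whose limma quality weights (lower for noisier libraries) were the lowest, at 0.43, 0.37 and 0.39. Replicates 1 and 4 had 1.13 and 1.09. For Arhgap33 the shares were 98.6 to 99.7% in Ag and 98.1, 97.4, 60.2, 42.5 and 97.2% in Ag+Costim, where 2 libraries were low (two-sided exact permutation p = 0.0079, the smallest that 5 against 5 libraries allow, and adjusted p = 0.522 by limma). Dhx9, with 3 bases, had 42.4, 70.7, 84.5, 49.7 and 60.02% in Ag and 29.4, 40.65, 39.9, 37.8 and 38.7% in Ag+Costim. Its groups did not overlap (exact permutation p = 0.0079), in the direction of its PSI, but the adjusted p was 0.512 by limma.

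Other events showed that the PSI difference need not appear in the transcript counts, and in some the mean share went the other way. The Canx shares were 88.3 to 92.6% in Ag and 87.5 to 91.4% in Ag+Costim, overlapping, where PSI was 0.812 and 0.556. For Tent4b, 4 Ag libraries stood at 100% and replicate 5 at 0.0214%, and 3 Ag+Costim libraries at 100% and replicates 1 and 2 at 0.849 and 26.1%. For Cdh23, 4 of 5 libraries in each group were between 94.7 and 100% and 1 in each was at 0%. Nfya, Foxp1 and Irak1 were lower in PSI in Ag+Costim but higher in mean share. Their means in Ag and Ag+Costim were 70.9 and 77.7%, 85.4 and 99.5%, and 70.3 and 86.0%. Cbfa2t2 (82.4 and 76.4%), Cdan1 (53.0 and 46.1%) and Rad52 (68.6 and 66.0%) were higher in PSI and lower in mean share. In all of these the groups overlapped. Eif4g1 had mean shares of 1.05 and 0.0575%, outside the limits of the test, and was not tested. Over the 1065 events tested in genes at 10 CPM or more, PSI and the mean included share correlated with r = 0.779 in Ag and 0.754 in Ag+Costim, and their differences with r = 0.155. These points share libraries and transcript models. Of the 84 tested events with a PSI difference over 0.1, 39 of 54 that were lower in PSI and 20 of 30 that were higher went the same way in the mean share, 9 had an unadjusted p under 0.05 and 0 an adjusted p under 0.05.

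The Ag libraries were less alike than the Ag+Costim libraries in the included share. The median SD of the log2 ratio over the 1395 events was 1.35 in Ag and 0.75 in Ag+Costim, and 1.32 in Ag without replicates 1 and 4 (3 libraries). The median included share lay between 61.5 and 63.9% within Ag, against 58.6 to 62.5% within Ag+Costim, which overlapped. The mean over the events did not overlap, with 56.57 to 57.74% in Ag and 55.33 to 56.42% in Ag+Costim. The gap was narrow, the libraries held values for 1375 to 1395 events, and the mean over all event types was not computed. The median log2 ratio differed alike in AA events (-0.11) and in all events (-0.12). For the 412 tested segments of 3 bases the medians were 59.5 to 66.0% in Ag and 57.6 to 60.1% in Ag+Costim, also with overlap. The means of these segments were 57.096 to 59.58% in Ag and 55.51 to 57.103% in Ag+Costim, which overlapped as well.

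The host genes as such were compared by their counts. Using edgeR's quasi-likelihood test, 0 of 1562 tested host genes passed a BH-adjusted p of 0.05, as did 0% of all genes tested. At an unadjusted p under 0.05 there were 370 host genes (23.7%), beside 18.6% of all genes. DESeq2 called 197 of 1564 (12.6%), 123 higher and 74 lower, beside 14.3% of all genes. Of the genes named above, Cdh23 had a log2 fold change of -1.34 (SE 0.31, adjusted p = 0.154 by edgeR) and Eif4g1 of 0.94 (SE 0.19, adjusted p = 0.141), while Ly6e was level at 0.02 (SE 0.21).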

How the data were processed

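The authors aligned poly(A) RNA-seq reads (SMART-Seq v4 with Nextera XT) to mm10 with HISAT2 2.1.0, sorted them with SAMtools 1.9 and derived gene and transcript counts with StringTie 2.1.0, and the labels also name R 4.0.5 and DESeq2 1.30.1. The deposited values are expected counts (estimated from coverage, whole numbers, not normalized). From raw reads the authors ran Whippet, and the deposited PSI is a fraction, 1 per group, with the libraries of a group combined. The same table holds the authors' PSI difference, a probability of a difference, complexity and entropy, and none of these was used. The sheet of the sequencing facility and the sample sheet were not used.

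The difference was computed as Ag+Costim minus Ag. Rows of type AA were matched to GENCODE M21, 1827 by symbol and 35 by coordinates, leaving 1 unmatched; 1842 had transcripts that include and skip the segment. A transcript includes a segment when an exon holds all of it and skips it when an intron spans it. Counts were tested in R 4.3.3 with limma 3.58.1 (log2 ratio with 0.5 added, trend and robust, at least 20 counts in 8 of 10 libraries, mean share between 1 and 99%) and genes with edgeR 4.0.16 (TMM, filterByExpr, robust), with DESeq2 1.42.0 as an alternative. No library-size normalization enters a share. Single events were also compared by exact permutation of the 10 libraries (two-sided). SDs are over libraries. Intervals are not given, as estimated counts are not independent molecules. Steps were checked on simulated data. The labels do not tie libraries to animals, while the study's text describes biological replicates from 5 mice a group.

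Named events, 1 per gene: in genes at 10 CPM or more, the 8 largest PSI differences each way; of the share test, those passing without overlap plus the 4 lowest p; of 3-base segments at 50 CPM or more, the 6 largest differences and the 4 most expressed with PSI of 0.2 to 0.8; the 3 largest per gene list; and genes the study discusses. Members and lists were chosen with earlier results of these data known. Alternatives were other pseudocounts, filters and scalings, library weights, leaving out each library and a replicate block; leaving out Ag replicates 1 and 4 together was added after seeing the data. Columns for Naive were not used. No genome sequence was used, so intron bases were read only where a transcript covers them.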

Additional observations from a re-analysis of the deposited data

Results flagged for a closer look

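In 21 groups of 5 libraries, those of the 11 AA events tested above, 5 had a library far from the others by Dixon's ratio. Chance gives about 1 in 20 for normally distributed values. Some of these shares pile up at a bound, and the events were picked from these data, so that rate is no measure here. The included share was 96.6% for the 84-base Ly6e segment in Ag replicate 3, the library with the lowest total and the highest erythroid and B cell marker sums. It was 98.6% for Ppp6r3 in Ag replicate 2, 72.9% for Gon4l in Ag replicate 1, 68.5% for Naaa in Ag replicate 5 and 29.4% for the 3-base Dhx9 segment in Ag+Costim replicate 1. Gon4l passed the threshold without Ag replicate 1 (adjusted p = 0.0144 by limma) and Naaa without Ag replicate 5 (adjusted p = 3.85e-04 by limma). Leaving out the flagged library enlarged the log2 ratio, from -2.79 to -3.26 in Gon4l and from -9.30 to -11.5 in Naaa. These passes are therefore no separate support.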

How the results depend on the processing

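The count of 3 AA events called per library became 1 with the share on a linear scale, 6 with a quality weight per library (2 higher, 4 lower), 0 with the replicate block and 1 to 7 when single libraries were left out (7 without Ag replicate 5, 1 without Ag+Costim replicate 2 or 4). Without Ag replicates 1 and 4 together, chosen after seeing the data, it was 14, with the Ag libraries of the lowest quality weights left. Among the 14 were Ep400 and Gon4l (adjusted p = 0.0120 by limma), while Ppp6r3 and Mypop were not called. Host genes stayed at 0 there, and events past a PSI difference of 0.1 were 81. With a pseudocount of 5 the count of AA events called was 2, and the remaining filters gave 3. Same-numbered libraries did not deviate together (r between -0.10 and 0.11 over genes, -0.07 and 0.02 over events). The labels do not say whether equal numbers share a preparation, and these correlations cannot exclude it. The Aga call was lost under the replicate block alone (adjusted p = 0.113 by limma) and otherwise kept, with adjusted p of 0.0224 or lower. Ppp6r3 and Mypop were not called on a linear scale (0.218 and 0.616) or under the block (0.593 and 0.219), nor Mypop with a pseudocount of 5 (0.355). The log2 ratio of the 84-base Ly6e segment lay between -2.19 and 0.056 when single libraries were left out and reversed to 0.056 without Ag replicate 3. Host genes called stayed at 0 in edgeR under 14 alternatives, and DESeq2 called 197; the cause was not tested. The 87 events past a PSI difference of 0.1 became 254 at 0.05, 17 at 0.2, 214 with host genes at 1 CPM or more, 238 with no filter on CPM and 55 with 10 CPM in every library, and 83 to 94 when CPM was taken without single libraries. More events were lower than higher in Ag+Costim under each of these, but all reuse the same PSI values, so this is no separate support. The median PSI in Ag of 3-base, other multiple-of-3 and frame-shifting segments moved by less than 0.05 without a CPM filter, at 100 CPM or more and with 1 event per gene, and so did that of 1 or 2 bases. At 100 CPM it became 0.861 at 4 bases, 0.723 at 5, 0.740 at 6, 0.858 at 7 to 12, 0.622 at 13 to 30, 0.909 at 31 to 100 and 0.765 over 100 bases, and with 1 event per gene 0.812 at 4 bases. PSI itself could not be recomputed without single libraries.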
